A study of Mus musculus with 6 samples.

Results

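Atoh1, Ptf1a, Barhl1, Zic1, Zic2, Zic4 and Pax6 encode 7 transcription factors that regulate the developing cerebellum and its rhombic lip, out of 26852 genes measured in embryonic mouse midbrain. They were listed to look for tissue from behind the midbrain in the dissections, and the measure by which they are read is their mean level in mutant and control libraries. The genes were chosen by these group means of the deposited table, so their differences between genotypes are described here without a test. RNA was sequenced from midbrain dissected at E14.5 on a C57Bl/6 background, as 3 libraries of Lmx1b cKO embryos (Lmx1b fl/fl; Pitx3-Cre) and 3 libraries of control embryos (Lmx1b wt/wt; Pitx3-Cre). Each library held RNA pooled from 2 embryos. All embryos of both groups carried Pitx3-Cre, in which Cre takes the place of Pitx3, so the controls had also lost a Pitx3 allele. Cre is made only in Pitx3-expressing cells, which in the midbrain are the mesodiencephalic dopaminergic (mdDA) neurons, so most cells of the dissected tissue kept an intact Lmx1b gene in both groups.

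The cerebellum forms from rhombomere 1, directly behind the midbrain. Its dorsal edge, the rhombic lip, is marked by the basic helix-loop-helix factor Atoh1 and produces glutamatergic neurons, above all granule cell precursors. The cerebellar ventricular zone is marked by Ptf1a, another factor of the same class, and produces GABAergic neurons such as Purkinje cells and interneurons. Barhl1, Zic1, Zic2, Zic4 and Pax6 act in the granule cell lineage, but they are not restricted to it. The Zic zinc finger factors are also made along the dorsal midline of the neural tube and in meningeal precursors, Pax6 in the diencephalon next to the midbrain, and Barhl1 in neurons of the midbrain and the subthalamic region. Atoh1 and Ptf1a are thus the more specific markers of the list.

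Sequences before the start sites are shown for Zic1 and Pax6, which ranked the 6 libraries in the same order, and for Barhl1, which hardly varied among them. They were taken from RefSeq on GRCm38.p6 and cover the bases from 250 to 51 before the annotated start, 5′ to 3′ on the strand of the gene. Both factors that name the more specific markers belong to the class that binds the E-box, so CANNTG, a motif that reads the same on both strands, was searched, and its matches are in capitals. A RefSeq window was at hand for 6 of the 7 genes, Zic2 being the exception. The Zic1 window lies at chr9:91365819-91366018 on the minus strand.
Zic1: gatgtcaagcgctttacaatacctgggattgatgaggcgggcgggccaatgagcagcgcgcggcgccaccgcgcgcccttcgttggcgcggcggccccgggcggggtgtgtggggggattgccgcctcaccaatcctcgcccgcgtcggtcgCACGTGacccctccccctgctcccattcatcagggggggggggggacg
The Pax6 window lies at chr2:105668646-105668845 on the plus strand.
Pax6: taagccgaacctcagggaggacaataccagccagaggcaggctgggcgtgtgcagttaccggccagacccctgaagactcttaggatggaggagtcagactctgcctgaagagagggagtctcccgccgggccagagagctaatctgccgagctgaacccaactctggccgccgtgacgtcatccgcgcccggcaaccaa
The Barhl1 window lies at chr2:28916719-28916918 on the minus strand.
Barhl1: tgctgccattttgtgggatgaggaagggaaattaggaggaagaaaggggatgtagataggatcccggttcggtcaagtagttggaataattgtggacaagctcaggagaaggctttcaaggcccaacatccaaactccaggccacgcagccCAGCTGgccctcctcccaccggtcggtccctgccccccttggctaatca
The Zic1 window held 1 match and the Barhl1 window 1 match, while the Pax6 window held 0. CANNTG was present in 59.0% of 32544 windows of the same 200 bases around the genome, so a match or its absence sets none of these genes apart. The GC content was 71.5% for Zic1, 62% for Pax6 and 55% for Barhl1, against a median of 51.5% over all windows.

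The deposited table gives only the mean normalized count of each group, that is, read counts divided by a size factor per library and averaged. The whole-number counts of the single libraries were worked out from these means for 26372 genes (98.2%). These genes account for 70.0% of normalized counts assigned to genes and for between 20782935 and 25240920 reads per library. All 7 members were among them. The libraries obtained in this way carry a genotype but no sample number, and they are called a, b and c within each group in the order of falling size factor. Lmx1b itself, the deleted gene, stood at 1257, 1401 and 1455 normalized counts in cKO a, b and c and at 1368, 1352 and 1474 in control a, b and c, so its total does not check the labels. Some libraries stood apart from the others. In cKO c 29 genes, and in control a 14 genes, lay above 3 times their level in every other library, against 6 in cKO a, 4 in cKO b, 1 in control c and 0 in control b. Col1a1, a collagen gene of connective tissue and meninges, had 6097 normalized counts in cKO c and 532 in cKO a but between 10.6 and 14.8 in the other libraries. Atoh1 was one of the 14 genes of control a.

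Of 16697 genes with a mean of at least 10 normalized counts, 467 (2.8%) had an unadjusted p under 0.05 in limma with voom weights, 198 of them higher (1.19%) and 269 lower (1.61%) in the cKO. At an adjusted p (Benjamini-Hochberg) under 0.05 the count was 0 (0.0%). All cKO libraries lay on one side of all control libraries for 1278 genes (7.65%). Among the 7 members, the groups did so for 0, which is given as a description. Of the members, 6 were above the minimum mean. Atoh1 passed that minimum only through control a, and Ptf1a did not pass it. These p-values measure the spread between the 3 libraries of a group. In a bulk sample, fewer cells of a type and less RNA per cell cannot be told apart.

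Atoh1 (ENSMUSG00000073043, GRCm38 chromosome 6, 64729125 to 64731245), the factor that specifies rhombic lip neurons, was found almost only in a single control library. It had 74.3 normalized counts in control a, from 84 reads (95% exact Poisson interval 59.3 to 92.0, which covers counting error only). It was at 0 in control b and at 2.16, from 2 reads, in control c, and it was at 0 in all 3 cKO libraries. The group means were 0 in the cKO and 25.5 ± 42.3 (SD, n = 3) in the control, a difference that is smaller than the spread of the control libraries. With 3 reads per library as the limit, a count of 0 allows a level of up to 2.81, 3.17 and 3.25 normalized counts in cKO a, b and c and of up to 2.88 in control b. The upper ends of the 95% exact Poisson interval were 3.46, 3.90 and 3.99 in cKO a, b and c and 3.54 in control b. Control a therefore lay above what counting error allows in the libraries at 0. With reads pooled over each group, the control had 27.8 reads per unit of size factor. Taking 3 reads over the whole cKO group as its limit, or 1.02 per unit, Atoh1 was at least 27.2-fold lower in the cKO. However, 97.7% of the 86 control reads came from control a. Without that library the control mean was 1.08, from 2 reads, and both groups were then under 3 reads.

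Ptf1a (ENSMUSG00000026735, chromosome 2, 19445663 to 19447501), which specifies cerebellar GABAergic neurons, was also highest in control a. There it had 18.6 normalized counts, from 21 reads (95% exact Poisson interval 11.5 to 28.4). The other control libraries were at 0. In the cKO, Ptf1a was at 0 in library a, at 1.06 from 1 read in library b, and at 6.49 from 6 reads in library c. The group means were 2.52 ± 3.48 in the cKO and 6.19 ± 10.7 in the control (SD, n = 3), and the groups overlapped. Without control a the control mean was 0, which is below the cKO mean. Over 609 bases, or 40.4% of its exon length, Ptf1a shares sequence with the antisense gene Ptf1aos, and the use of strand in the counting is not stated, so reads of the pair cannot be told apart there. Both specific markers thus had their highest value in the same control library, on few reads for Ptf1a.

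Barhl1 (ENSMUSG00000026805, chromosome 2, 28907679 to 28916668), a homeodomain factor of migrating granule precursors and of other neurons, was abundant and almost constant. Libraries a, b and c of the cKO had 1604, 1589 and 1639 normalized counts, and those of the control had 1662, 1785 and 1534. The cKO values lay inside the range of the control values. The means were 1611 ± 25.4 and 1660 ± 126 (SD, n = 3), which is -0.04 on the log2 scale (standard error 0.068). The highest library was 1.16 times the lowest, a span smaller than the median of 1.20 over the 12465 genes with a mean of at least 100. Barhl1 in control a, the library that held Atoh1, was second of the 6. Barhl1 lies 4.64 Mb from Lmx1b on the same chromosome.

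**Figure D1:**
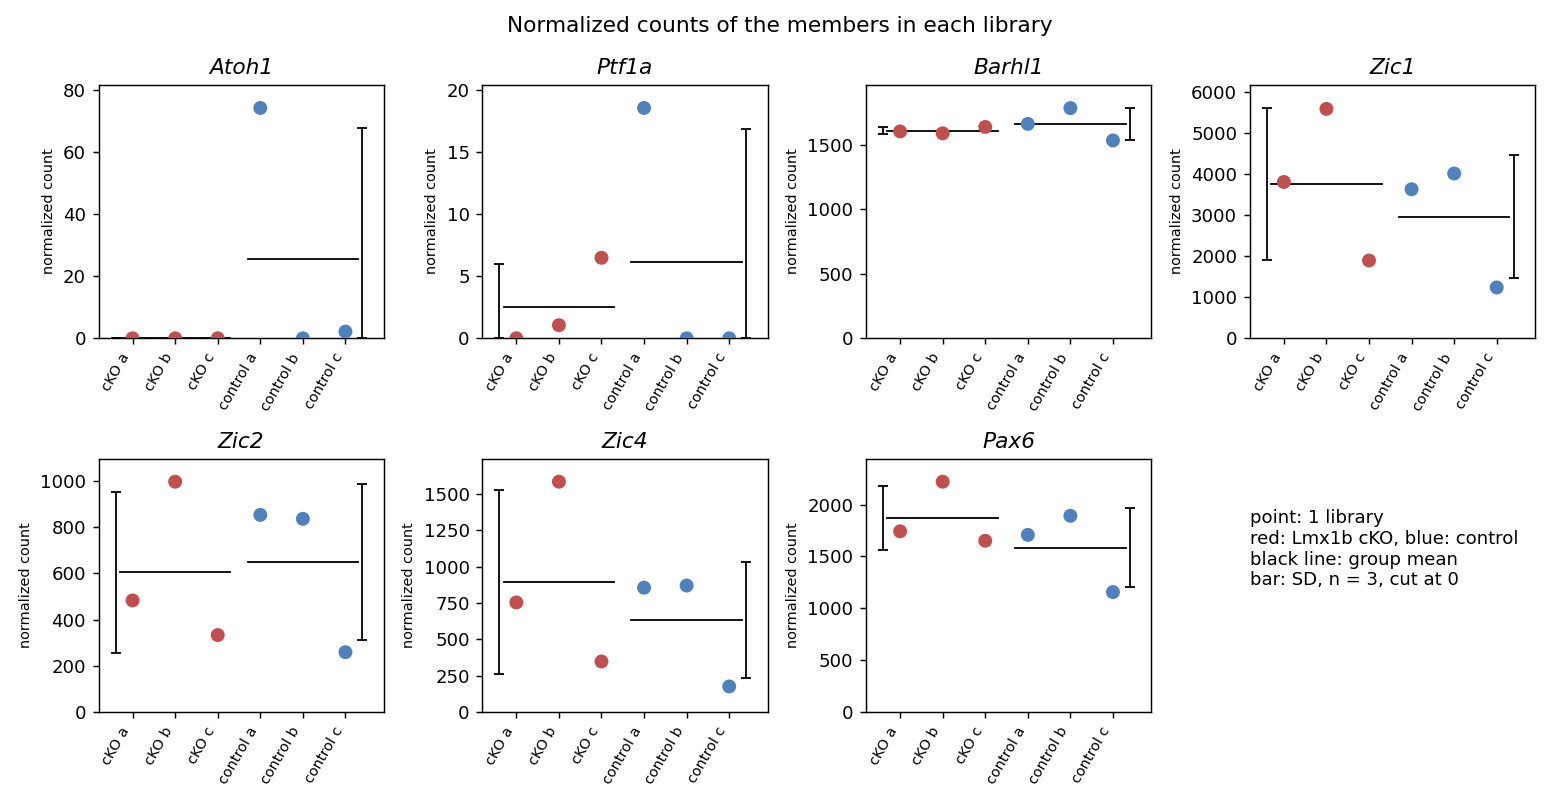
Normalized counts (vertical axis, linear from 0, different for each gene) of the 7 genes in each of the 3 Lmx1b cKO (red) and 3 control (blue) libraries, with the group mean as a line and the SD (n = 3) as a bar that is cut at 0. Atoh1 and Ptf1a are highest in control a, at 74.3 and 18.6, Barhl1 is nearly flat, and Zic1, Zic2, Zic4 and Pax6 are highest in cKO b and lowest in control c.

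The Zic genes varied several-fold among libraries of the same genotype. Zic1 (ENSMUSG00000032368, chromosome 9, 91358058 to 91365810), which keeps granule precursors undifferentiated, had 3802, 5579 and 1892 normalized counts in the cKO and 3625, 4008 and 1237 in the control. Its means were 3758 ± 1844 and 2956 ± 1502 (SD, n = 3), and the log2 fold change of 0.37 did not reach its standard error, 0.41. Zic4 (ENSMUSG00000036972, chromosome 9, 91362413 to 91389348), its neighbour on the opposite strand, had 753, 1583 and 347 in the cKO and 855, 869 and 176 in the control. The means were 895 ± 630 and 633 ± 396, or 0.49 on the log2 scale (standard error 0.57). Heterozygous loss of ZIC1 and ZIC4 together has been linked to Dandy-Walker malformation of the human cerebellum. Zic2 (ENSMUSG00000061524, chromosome 14, 122475435 to 122479852), a gene of the dorsal neural tube that is needed for division of the forebrain into hemispheres, had 483, 997 and 333 in the cKO and 854, 837 and 259 in the control. The means were 605 ± 348 and 650 ± 338, or -0.12 on the log2 scale (standard error 0.43). The groups overlapped for all 3 genes, with cKO b the highest library and control c the lowest.

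This variation was larger than that of most genes with a mean of at least 100 normalized counts, which were not matched to the Zic genes for level. The highest library exceeded the lowest 4.51-fold for Zic1, 3.85-fold for Zic2 and 8.99-fold for Zic4. Of the 12465 genes with a mean of at least 100, 99.8% had a smaller span than Zic1, 99.7% a smaller span than Zic2 and 99.9% a smaller span than Zic4. Zic5, a gene of the family that is no member, ordered the libraries in the same way as Zic2. It had 131, 347 and 64.9 normalized counts in the cKO and 317, 198 and 52.9 in the control. These 4 genes thus shared their highest library, cKO b, and their lowest ones, cKO c and then control c. The direction of all 3 differences depended on single libraries. Without control c, the log2 fold change was -0.15 for Zic1 and -0.20 for Zic4, and without cKO b that of Zic4 was -0.02. That of Zic2 was 0.21 without cKO c, 0.18 without control a and 0.14 without control b.

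Pairs of Zic genes are close neighbours in the genome. The gene bodies of Zic1 and Zic4 overlap by 3.40 kb on opposite strands and share 60 exon bases, and their RefSeq start sites are 3.20 kb apart. Zic2 and Zic5 are separated by 9.76 kb. Zic4 also shares 468 exon bases with Gm37477 on the opposite strand, and the counting could have split reads in these stretches. Neither stretch exceeds 4.53% of the exon length of Zic4.

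**Figure D2:**
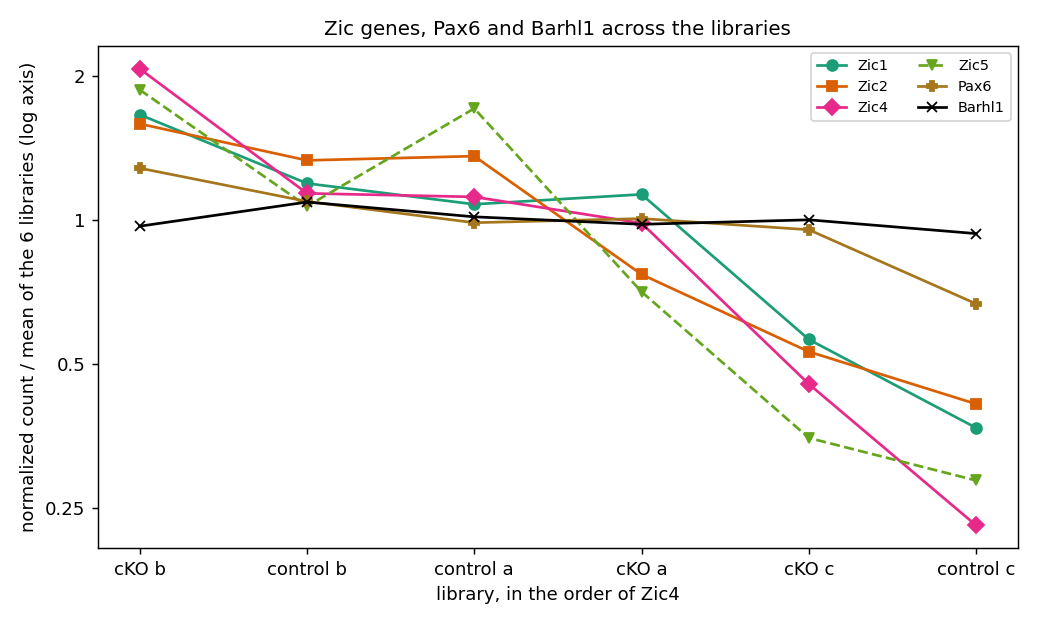
Normalized count of Zic1, Zic2, Zic4, Zic5, Pax6 and Barhl1 in each library divided by the mean of the gene over the 6 libraries (log axis), with libraries placed from the highest to the lowest Zic4 value and Zic5, which is no member, dashed. The 4 Zic genes fall from cKO b to control c, Pax6 follows with a smaller span, and Barhl1 stays flat.

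Pax6 (ENSMUSG00000027168, chromosome 2, 105668900 to 105697364), the paired-box factor of granule precursors, forebrain and eye, followed the Zic genes over a smaller range. It had 1743, 2221 and 1652 normalized counts in the cKO and 1708, 1892 and 1157 in the control. The order of the libraries was that of Zic1, from cKO b through control b, cKO a, control a and cKO c to control c. The means were 1872 ± 306 and 1586 ± 383 (SD, n = 3), or 0.24 on the log2 scale (standard error 0.16), and the groups overlapped. The span of 1.92-fold between the highest and the lowest library was larger than that of 97.6% of the 12465 genes. Over the 5 members with reads in every library, the median log2 fold change was 0.24, and with Atoh1, which passed the minimum mean only through control a, it was 0.10. The median over all genes tested was -0.00.

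Per kilobase of merged exon, Zic1 had the highest level of the 7 genes, with 590 ± 275 normalized counts per kb (SD over 6 libraries). Barhl1 followed with 419 ± 21.9, Zic2 with 218 ± 107, Pax6 with 148 ± 29.7 and Zic4 with 73.9 ± 47.6. Atoh1, at 6.01 ± 14.2, and Ptf1a, at 2.89 ± 4.92, were the lowest. The neighbours Zic1 and Barhl1, Zic2 and Pax6, and Atoh1 and Ptf1a differed by less than the larger of their SDs, and the order of these pairs is not settled by the 6 libraries. With the length of the longest transcript in place of the merged exons, Pax6 had 391 and Zic2 257 counts per kb, so Pax6 came before Zic2. Even in control a, Atoh1 reached only 35.0 and Ptf1a 12.3 normalized counts per kb.

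**Figure D3:**
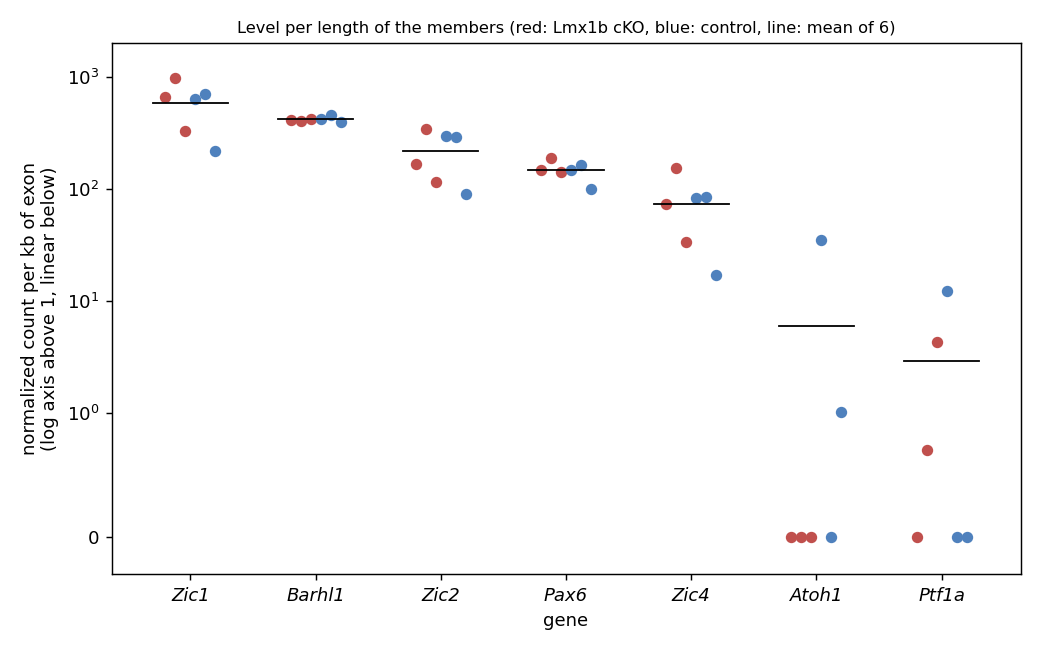
Normalized count per kilobase of merged exon (log axis above 1, linear below) for each of the 7 genes in the 3 Lmx1b cKO (red) and 3 control (blue) libraries, with the mean of 6 as a line. Zic1 and Barhl1 are the highest at means of 590 and 419, while Atoh1 and Ptf1a lie at or near 0 in all libraries but control a, where they reach 35.0 and 12.3, and Ptf1a in cKO c.

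Ratios within a library do not depend on its size factor. The ratio of Zic4 to Zic1 ran from 0.142 in control c to 0.284 in cKO b, and that of Zic2 to Zic1 from 0.127 in cKO a to 0.236 in control a. These ranges, of 1.99-fold and 1.85-fold, were narrower than the ranges of the single genes. Pax6 stood at 0.398 times Zic1 in cKO b and at 0.935 times in control c. Barhl1 exceeded Atoh1 22.4-fold in control a, and the 0 to 2 reads of Atoh1 in the other libraries are too few for a ratio. Barhl1 was thus about as abundant in libraries with Atoh1 reads as in those without.

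The genes whose pattern over the 6 libraries was most like that of Atoh1 were ranked by Pearson's r of log2(normalized count + 1), among 13682 genes with a mean of at least 50. The ranking is a description over libraries that share their size factors. As Atoh1 had almost all of its reads in control a, its r mostly sets that library against the others. First came the sulfotransferase gene Chst15 (r = 0.987), followed by Wtip (0.985), Fgf3 (0.983), Rtca (0.982) and Foxm1 (0.980), a factor of dividing cells. Fgf3, a secreted growth factor of the hindbrain and otic region, had 421 normalized counts in control a, 53.8 and 59.4 in the other controls, and 35.6, 40.2 and 37.9 in the cKO. Wtip, by contrast, only ranged from 484 to 540, and Chst15 from 518 to 916. With Zic1, an r of -0.04 was obtained, with Barhl1 0.01 and with Pax6 -0.22, so Atoh1 and the abundant members did not share a pattern. Skor2 came 49th (0.935) and Kirrel2 182nd (0.860). Both belong to the ventricular zone list and stood apart in control a, and no other gene of that list was looked up. Their ranks therefore do not speak for the lineage.

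For comparison, and chosen after the values were seen, the same ranking was made for Zic1. Zic4 came first of 13681 genes (r = 0.994), before Gm5045 (0.990), Lsm14a (0.985), Bri3 (0.982) and Lrp4 (0.982). Lsm14a and Bri3 spanned only 1.08-fold and 1.13-fold, whereas Lrp4, a receptor of the LDL receptor family, spanned 2.20-fold. Pax6 ranked 31 (0.927), Zic2 33 (0.925) and Zic5 53 (0.912). Barhl1 ranked 2375 (0.432).

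Other genes of the rhombic lip and granule lineage were read from a list of 20, of which 19 were above the minimum mean. Among these, 0 were higher and 1 was lower in the cKO at an unadjusted p under 0.05, where 1.19% and 1.61% of all genes were, and the median log2 fold change was 0.01. The gene called was Tlx3, a homeobox gene of glutamatergic hindbrain neurons, with 7.50, 13.7 and 1.08 normalized counts in the cKO and 58.4, 32.7 and 8.64 in the control. Its log2 fold change was -2.25 (standard error 0.92, limma, unadjusted p = 0.0312, adjusted p = 1.00). It was no longer called without cKO a (-2.50), control b (-2.11), control a (-1.63) or cKO c (-1.38). The groups overlapped for Tlx3. It passed the minimum mean only through the control, where its mean was 33.2, against 7.44 for the cKO. The difference itself thus helped Tlx3 to enter the test, although the fit with no minimum mean also called it. The summed level of the list was 25525 to 27720 in the cKO and 22516 to 28827 in the control, and Reln, the secreted guide of migrating neurons, had the most counts of any gene in it. Leaving out a library gave from 0 genes, without cKO a, to 4 genes, all higher, without cKO c.

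The genes of this list divided between the same libraries as the members. Control a held the highest value of 9 of the 19 genes, and cKO b that of 7. Control c held the lowest value of 11. Over all 16697 genes, 18.7% were highest in control a, 16.5% were highest in cKO b and 14.4% were lowest in control c. Olig3, a progenitor factor of the rhombic lip and of the thalamus, had 181 normalized counts in cKO b and between 15.2 and 43.4 elsewhere. Tbr1, a gene of glutamatergic neurons in the cerebellar nuclei and the cortex, had 336 in cKO b, 158 in control a, 108 in cKO a and 9.72 to 32.7 in the others. Meis1, which is made in the granule lineage, had 1027 in control a and 518 to 633 elsewhere. Olig3, Tbr1 and Meis1 were named after their values were seen.

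On the ventricular zone and GABAergic side, all 20 listed genes were above the minimum mean, with 1 higher and 1 lower at an unadjusted p under 0.05 (1.19% and 1.61% of all genes) and a median log2 fold change of 0.01. Skor2, a corepressor of Purkinje cells, had 49.7, 58.1 and 45.5 normalized counts in the cKO and 325, 91.3 and 73.4 in the control, so the groups did not overlap. The log2 fold change was -1.41 (standard error 0.57, limma, unadjusted p = 0.0293, adjusted p = 1.00), and without control a, where it was still called, it was -0.69. Without cKO a, b or c it was -1.39, -1.50 or -1.33, and the call was lost although the difference was about as large. Lhx1, a LIM homeobox gene of Purkinje cells and many other neurons, had 4578, 5278 and 4889 in the cKO and 4348, 4559 and 4371 in the control. Its log2 fold change was 0.15 (standard error 0.057, limma, unadjusted p = 0.0252, adjusted p = 1.00), and leaving out cKO b (0.09), cKO c (0.15), control a (0.13) or control c (0.14) ended the call. Leaving out a library gave from 1 gene called, as without cKO a, cKO c or control a, to 6 genes without control b. Tfap2b, a gene of the GABAergic lineage downstream of Ptf1a, had the most counts of any gene in the list.

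Some genes next to Ptf1a in its lineage also had their highest value in control a. Kirrel2, a target of Ptf1a that encodes an adhesion molecule, had 219 normalized counts in control a and 7.68 to 49.7 elsewhere. Prdm13, another target, had 101 in control a, 49.7 and 0 in the other controls and 19.7 to 32.8 in the cKO. Pax2, of GABAergic interneuron precursors, had 148 in control a and 44.4 to 71.3 elsewhere. In cKO c, where Ptf1a had its second highest value, Kirrel2 had 10.8, Prdm13 20.6 and Pax2 44.4. These 3 genes and others named with control a were picked after their values were seen, and Kirrel2, Prdm13 and Pax2 were not called between the genotypes in the fit of all libraries. Control a had 7 and cKO b 6 of the 20 highest values, and control a also had 1 lowest value, that of Lhx1. The summed level of the list was 42527 to 45249 in the cKO and 39708 to 45052 in the control, with 43551 in control a. The list as a whole was thus not raised in control a. Msx3, a homeobox gene of the dorsal neural tube, was also among the 14 genes of control a, with 113 normalized counts against 6.49 to 12.7.

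**Figure D4:**
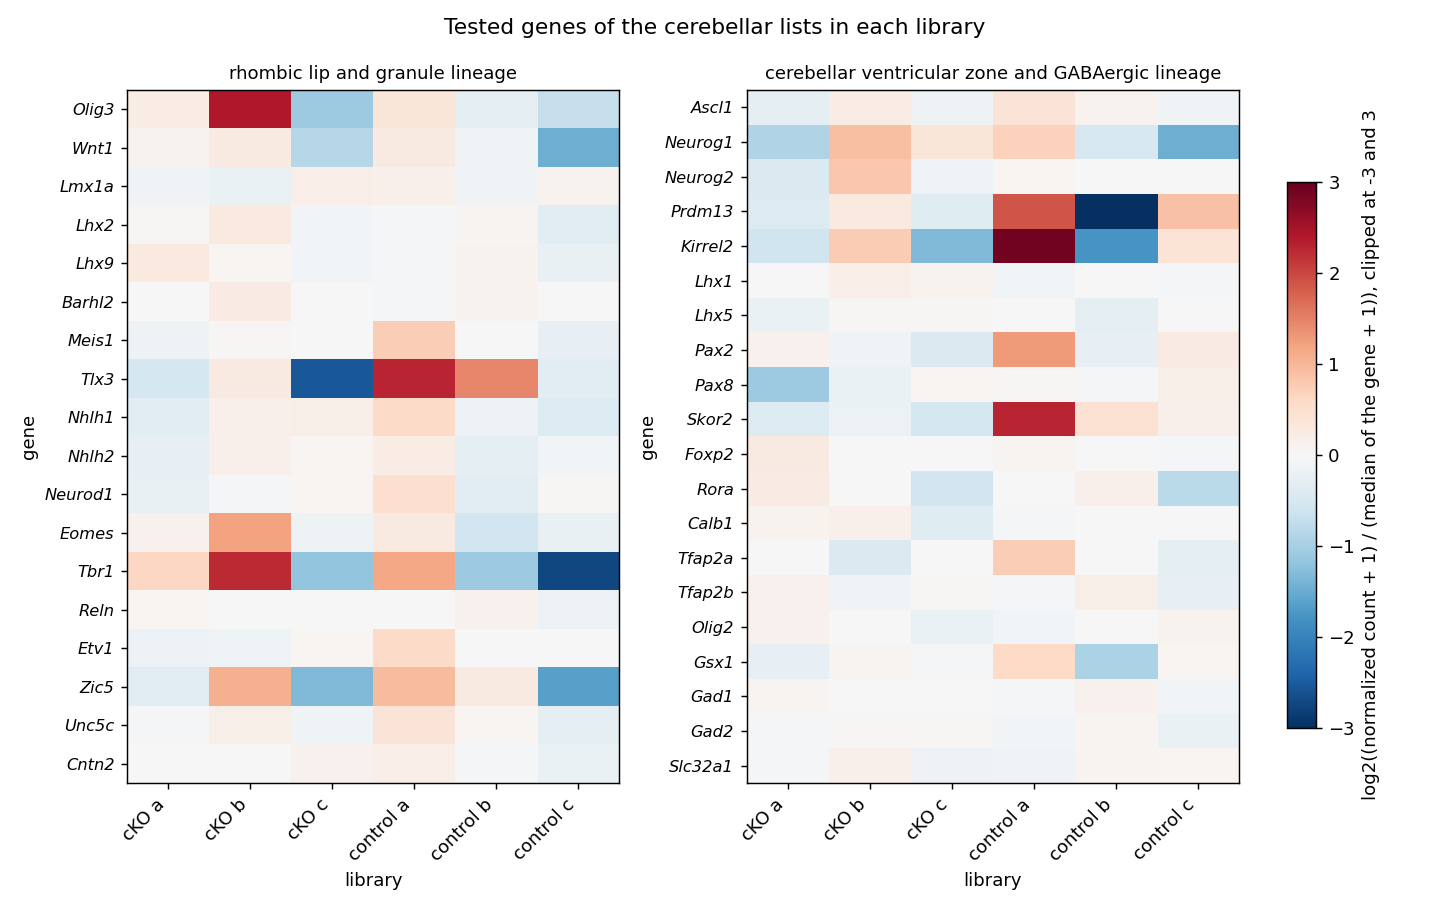
Normalized count + 1 of the tested genes of the rhombic lip list (left, 18 of 19 genes) and the ventricular zone list (right, 20 genes) in each library, as log2 of its ratio to the median of the gene + 1 (colour, clipped at -3 and 3). Olig3 and Tbr1 are highest in cKO b, Tlx3, Kirrel2, Prdm13, Pax2 and Skor2 in control a, and most other rows are pale.

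Markers of tissue on either side of the dissection are given beside these results, and their part in them was not tested. Hox genes, which mark the hindbrain behind the cerebellum, were at or near 0: Hoxa2 did not exceed 5.31 normalized counts in any library, and 0 genes of the list were called. In the list of isthmus and rhombomere 1, 0 of 7 genes were higher and 2 were lower at an unadjusted p under 0.05 (1.19% and 1.61% of all genes), En1 with a log2 fold change of -0.40 and En2 with -0.46 (standard errors 0.094 and 0.10, limma, adjusted p = 1.00 for both). With a library left out, En1 and En2 were each called in 6 of 6 fits. Irx2 had the most counts of any gene there. Gbx2, which marks rhombomere 1 and also the thalamus, had 613, 815 and 435 normalized counts in the cKO and 326, 622 and 375 in the control, with its lowest value in control a, which held Atoh1. Fgf17, a growth factor of the isthmus that was named after its values were seen, ran the other way, with 61.9 normalized counts in control a and 18.0 to 27.1 elsewhere. The summed level of that list was 5632 to 6356 in the cKO and 6832 to 7276 in the control. Its largest differences were those of En1 and En2, with cKO means of 1048 and 1673 against control means of 1381 and 2284. Gbx2 and Fgf8 went the other way, with cKO means of 621 and 7.87 against 441 and 5.56. The sum thus mainly follows En1 and En2, and whether it reflects the amount of tissue was not tested. Otx2, which ends at the boundary of the midbrain, lay between 1613 and 1863 in all libraries, and 0 of 8 dorsal midbrain genes were called, of which Meis2 was the most abundant.

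Of the diencephalon and forebrain genes, 4 of 8 tested were higher in the cKO at an unadjusted p under 0.05 (1.19% of all genes), namely Foxb1, Dlx1, Sim1 and Emx2 (limma, adjusted p = 1.00 for each). With a library left out, Foxb1 and Sim1 were called in 6 of 6 fits, Dlx1 in 4 and Emx2 in 3. Their log2 fold changes were 0.37, 0.37, 0.45 and 0.21, and 0 were lower. The gene with the most counts was Tcf7l2, with the authors' means at 15517 in the cKO and 14342 in the control, which lay above the search limit and was not tested. The summed level of the rest of the list was highest in cKO b, at 9744, where Zic1, Zic2, Zic4 and Pax6 also peaked, and lowest in control b, at 6497, which had the second highest Zic1, Zic4 and Pax6. Of the 7 tested meningeal genes 0 were called, and the summed level of all 10 listed ones ran from 773 to 11431 in the cKO and from 664 to 841 in the control. It was highest in cKO c, where the Zic genes were second lowest. Most of the sum in cKO c came from the collagen genes Col1a1, at 6097, and Col1a2, at 4315. Of the 7 tested meningeal genes, 5 had their highest value in cKO c, but Foxd1, at 70.4 there, and Crabp2, at 313, did not. Foxc1, a regulator of the meninges, lay between 89.3 and 144. Choroid plexus was near 0 for its defining gene Ttr, which had 6.34 in cKO b and 0 in the other libraries, with 0 of 3 tested genes called and Folr1 the most abundant. The dopaminergic list had 0 of 7 genes higher and 2 lower at an unadjusted p under 0.05 (1.61% of all genes), Ddc at a log2 fold change of -0.24 and Pitx3 at -0.41 (limma, adjusted p = 1.00 for both, each called in 2 of 6 fits with a library left out), with Nr4a2 the most abundant and Th between 733 and 976. Single libraries moved several of these counts. The forebrain genes called numbered 3 without cKO b and 5 without cKO a. The meningeal list went from 0 to 3 genes, all higher, without cKO b. The dopaminergic list had 0 without cKO a and 3 without control a. Without cKO c, 1 dorsal midbrain gene and 3 genes of the isthmus list were called, and without cKO a 1 gene of the choroid plexus list.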

How the data were processed

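RNA of E14.5 midbrains was sequenced as paired-end reads from 3 Lmx1b cKO and 3 control libraries of 2 pooled embryos each. Per the labels' processing notes, TopHat 1.0.14, Bowtie2 2.1.0, HTSeq 0.6.1p1, DESeq 1.10.1 and the build GRCm38.p4 were used, and the use of strand in the counting is not given in the sources used here. The coverage signal that the authors deposited is the mean of the read counts divided by a size factor, per group. The deposited table also holds ratios, log2 ratios and p-values of the authors' own comparison, which were not used. Its 26852 genes were used without 3 lines that name no gene (31.8% of mean counts).

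Steps between low means, each worth 1 read of a library, gave the size factors. The whole-number counts behind each mean up to 10000 were searched. Of 1000 decoy means per group, 0 and 1 had an answer. Recomputed size factors differed by at most 0.131%. Genes above the search limit were not analysed per library. Depth was 20782935 to 25240920 recovered reads per library.

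Genes with a recovered mean of 10 or more entered limma 3.58.1 (R 4.3.3), with voom weights and the genotype as the term, two-sided, and p-values were adjusted by the Benjamini-Hochberg method. The test was checked on simulated data. Genes were placed with GENCODE M21, and lengths are of merged exons. The 7 genes and all lists were chosen with earlier results of these data known. Named are these genes, Lmx1b, up to 4 called genes and the most abundant gene of each list, a set of defining markers, the 5 genes most like Atoh1, and others that are said to be chosen after their values were seen. Some genes of this rule are not reported here. Alternatives were limma-trend with a pseudocount of 1 or 10, recomputed size factors, other minimum means or thresholds, centring, other lengths and each library left out in turn. The ranking by Zic1 and the list of counts at an adjusted p were added after the data were seen. Python 3.11.15 with numpy 2.4.6, pandas 2.3.3, scipy 1.17.1, numba 0.67.0 and matplotlib 3.10.9 was used.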

Additional observations from a re-analysis of the deposited data

How the results depend on the processing

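The number of genes called at an unadjusted p under 0.05 was 467, and it was 970 (450 higher, 520 lower) with no minimum mean, 67 at a p under 0.01, and 338 to 637 in the fits without a library. At an adjusted p under 0.05, 0 genes were called in the fit of all 6 libraries, and 0 to 3 with a library left out, with 3 genes without control a. The rhombic lip list had 1 gene called, 0 with a minimum mean of 50, and 0 to 4 with a library left out. For the ventricular zone list, the range was 1 to 6 around the value of 2. With the longest transcript as length, Barhl1 had 446, Pax6 391 and Zic4 196 normalized counts per kb.

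With a library left out, the log2 fold change ran from -0.10 to 0.01 for Barhl1, -0.15 to 0.78 for Zic1, -0.64 to 0.21 for Zic2, -0.20 to 1.01 for Zic4 and 0.05 to 0.38 for Pax6. The control mean ran from 1.08 to 38.2 for Atoh1 and from 0 to 9.29 for Ptf1a. Why these values moved was not tested. With 1 or 2 reads, as for Atoh1 in control c, a level cannot be told from 0 or from the limit of 3 reads. No paired analysis was possible because the table pools the numbered libraries of each genotype in 1 mean, and the recovered libraries carry no replicate number.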
